A study of Mus musculus with 6 samples.

Results

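The phagocyte NADPH oxidase is an enzyme of macrophages and neutrophils that moves electrons from cytosolic NADPH across a membrane to oxygen, which yields superoxide. Its catalytic core is a heterodimer of 2 membrane proteins encoded by Cybb (gp91phox, also called NOX2) and Cyba (p22phox). On activation it binds the cytosolic subunits that include those encoded by Ncf1 (p47phox) and Ncf4 (p40phox), together with the small GTPase Rac2 or Rac1. The voltage-gated proton channel encoded by Hvcn1 lets protons follow the electrons and so balances charge and pH during the burst. Nos2 encodes inducible nitric oxide synthase, a second source of reactive species in activated mouse macrophages.

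Here 7 genes, Cybb, Cyba, Ncf1, Ncf4, Rac2, Hvcn1 and Nos2, were chosen by name, as the oxidase subunits, the channel and the synthase, out of 41388 genes in the deposited tables. All 7 were found, through the GENCODE M21 annotation of GRCm38, and 6 had enough reads to be tested. They were measured by bulk RNA-seq in the foamy and non-foamy macrophages sorted from the intimal layer of the aorta of ApoE -/- C57BL/6 mice, 3 libraries each. All libraries therefore carry the Apoe deletion, and the design names 6 atherosclerotic mice kept for 28 weeks on WD (Western diet). The protocol gives digestions of 8 minutes for the adventitia and of 70 minutes for the tissue, the same for all libraries. The foamy gate took live CD64+CD11b+ cells that were bright for BODIPY, which stains neutral lipid, and high in side scatter, and the non-foamy gate took live CD64+CD11b+ cells low in both. The labels do not say which mice went into which library. The tests therefore weigh a difference against the spread between libraries alone, and that spread may be technical.

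Total counts in genes ran from 18592421 to 24279802 in the foamy and from 15628627 to 24619075 in the non-foamy libraries. Non-foamy replicate 1 had a count in 24701 genes, against 15595 to 20538 in the other libraries. Macrophage genes were abundant in every library: Cd68, a lysosomal glycoprotein of macrophages, stood at 10425 to 10637 CPM (the deposited counts scaled to each library's total) in the foamy and at 6399 to 6661 CPM in the non-foamy libraries. Adgre1, another macrophage gene, stood at 375 to 471 CPM in the foamy and at 841 to 1042 CPM in the non-foamy libraries. Summed over 11 monocyte markers, CPM ran from 47.8 to 63.7 in the foamy and from 593 to 919 in the non-foamy libraries. A list of 19 stress genes, immediate early and heat shock, known to be induced by enzymatic digestion of tissue, summed to 2352 to 2597 CPM in the foamy and to 6556 to 8432 CPM in the non-foamy libraries. Fewer cells of a type and less RNA per cell cannot be told apart in bulk libraries.

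RefSeq windows (GRCm38.p6) were at hand for the promoters of 3 of the 7 genes, Cybb, Cyba and Ncf1. Each is shown 5′ to 3′ over the 200 bases before the transcription start on the minus strand, because these are both subunits of the membrane core and the cytosolic subunit that binds Cyba. Capitals mark matches to an interferon element (GAAANNGAA) or a gamma-activated site (TTCNNNGAA), read on both strands. The Cybb window lies at chrX:9469325-9469524, the Cyba window at chr8:122432941-122433140 and the Ncf1 window at chr5:134229626-134229825.
Cybb: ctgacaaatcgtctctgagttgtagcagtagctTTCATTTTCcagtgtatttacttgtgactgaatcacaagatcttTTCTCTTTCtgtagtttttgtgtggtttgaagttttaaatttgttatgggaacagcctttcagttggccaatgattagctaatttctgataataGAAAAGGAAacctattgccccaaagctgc
Cyba: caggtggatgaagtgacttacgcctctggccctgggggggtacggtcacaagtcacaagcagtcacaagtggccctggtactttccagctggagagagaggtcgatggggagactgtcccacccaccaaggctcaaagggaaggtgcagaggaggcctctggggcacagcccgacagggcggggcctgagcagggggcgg
Ncf1: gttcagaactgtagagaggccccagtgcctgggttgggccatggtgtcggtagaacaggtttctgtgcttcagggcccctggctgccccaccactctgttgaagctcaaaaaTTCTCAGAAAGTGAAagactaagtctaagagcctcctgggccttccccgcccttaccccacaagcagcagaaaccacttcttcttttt

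The interferon element was matched 3 times in the Cybb window, with first bases at -167, -123 and -29, the start itself being 0, of which the first 2 lie on the other strand. The Ncf1 window held it once, at position -82, where it overlaps the gamma-activated site at position -88. Neither element was found in the Cyba window. Over all 32851 RefSeq promoter windows of 300 bases, which reach past the start, 8.56% held the interferon element and 8.30% the gamma-activated site. The PU.1 core GAGGAAG and the NF-kB sequence GGGNNTTTC were matched in none of the 3 windows, and in 13.63% and 4.36% of all windows. These matches are letters only and were not measured as binding sites. The Cybb gene in the deposited tables reaches upstream of this window, to base 9487771 of chromosome X, so the window belongs to 1 of its starts.

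The comparison asks whether macrophages of the foamy gate carry more or less RNA for the oxidative burst machinery than those of the non-foamy gate. Of the 6 genes tested, 1 passed: Cyba was higher in the foamy libraries, and none was lower. Over all 11303 genes tested, 5.41% were called, 2.50% higher and 2.90% lower in the foamy libraries. These were 283 higher and 328 lower genes; scaled by total counts alone, which moved the median of all genes to -0.31, the split was 165 higher and 614 lower. The edgeR fold changes, foamy over non-foamy, had a median of 0.08 on the log2 scale over the 6 genes and of -0.04 over all genes tested. The subunit genes Cybb, Ncf4 and Rac2 had fold changes near the median of all genes, while Cyba, Hvcn1 and Ncf1 lay away from it in different directions. In these 3 genes the groups did not overlap, a pattern seen in 25.7% of all genes tested.

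**Figure D1:**
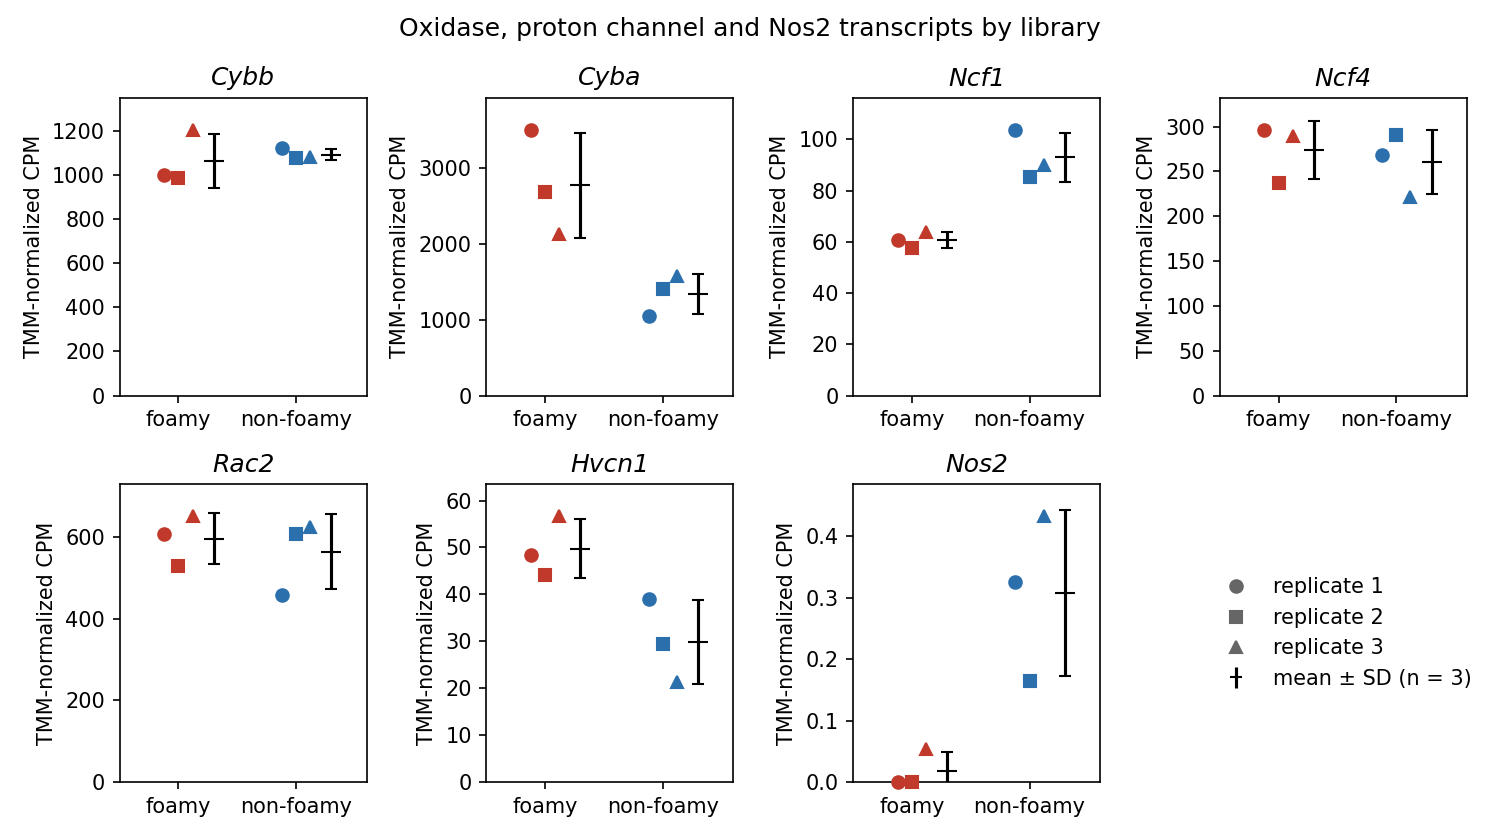
TMM-normalized CPM (counts scaled to the library total and corrected by the trimmed mean of M values) of the 7 genes in each library, with 3 foamy libraries in red on the left and 3 non-foamy libraries in blue on the right of each panel; bars are mean ± SD. Cyba lay between 2132 and 3508 in the foamy and between 1056 and 1577 in the non-foamy libraries, and Nos2 stayed at or below 0.433 in all 6.

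Cybb (ENSMUSG00000015340, chromosome X, 9435252 to 9487771, minus strand, GRCm38), the electron-carrying subunit, was abundant in both populations. Its TMM-normalized CPM were 999, 984 and 1203 in the foamy libraries in the order of their replicate number, and 1121, 1074 and 1079 in the non-foamy libraries in that order. The groups overlapped, with foamy replicate 3 highest and foamy replicate 2 lowest. The means were 1062 ± 122 CPM in the foamy and 1091 ± 25.8 CPM in the non-foamy libraries (SD, n = 3 each), a log2 fold change of -0.04 (SE 0.16, 95% interval -0.40 to 0.32, edgeR adjusted p = 0.94). On the deposited CPM, which carry no TMM scaling, the groups did not overlap, at 867, 949 and 1080 CPM in the foamy and 1324, 1157 and 1113 CPM in the non-foamy libraries. With total counts as the only scaling the log2 fold change was -0.31 (edgeR adjusted p = 0.30), the same as the median of all tested genes under that scaling, -0.31.

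Cyba (ENSMUSG00000006519, chromosome 8, 122424772 to 122432940, minus strand) encodes the partner that Cybb needs to be stable in the membrane and that docks the cytosolic subunits. Its TMM-normalized CPM were 3508, 2684 and 2132 in the foamy libraries, and 1056, 1405 and 1577 in the non-foamy libraries. Every foamy library was above every non-foamy one, and the foamy libraries differed among themselves by more than the non-foamy ones did. The means were 2775 ± 692 CPM in the foamy and 1346 ± 266 CPM in the non-foamy libraries (SD, n = 3 each), a 2.06-fold difference (log2 fold change 1.04, SE 0.22, 95% interval 0.55 to 1.53, edgeR adjusted p = 0.021). Leaving out foamy replicate 1 (log2 fold change 0.85), foamy replicate 2 (1.08) or non-foamy replicate 2 (1.08) ended the call, with edgeR adjusted p between 0.071 and 0.095. It was also lost in a test against a 1.5-fold change (edgeR adjusted p = 0.18). Non-foamy replicate 1, the lowest in Cyba, is the library with the most genes detected, and without it the log2 fold change was 0.89 (edgeR adjusted p = 0.046).

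Among the cytosolic subunits, Ncf1 (ENSMUSG00000015950, chromosome 5, 134220053 to 134229625, minus strand) encodes the organizer that, once phosphorylated, links the cytosolic complex to Cyba. It had 60.6, 57.8 and 63.9 TMM-normalized CPM in the foamy libraries, against 103.7, 85.3 and 90.1 CPM in the non-foamy libraries. All foamy values were below all non-foamy values, and the foamy libraries lay close together. The means were 60.8 ± 3.07 CPM in the foamy and 93.0 ± 9.56 CPM in the non-foamy libraries (SD, n = 3 each), and the difference did not pass the test over all genes (log2 fold change -0.61, SE 0.20, 95% interval -1.05 to -0.18, edgeR adjusted p = 0.11). With total counts as the only scaling it was called (-0.89, edgeR adjusted p = 0.029), and the median of all tested genes was then -0.31. Of the 3663 exonic bases of Ncf1, 408 overlap Gtf2ird2 on the other strand, a gene with 4 to 16 counts in the foamy and 10 to 165 counts in the non-foamy libraries, against 1037 to 1276 and 1550 to 2288 counts of Ncf1.

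Ncf4 (ENSMUSG00000071715, chromosome 15, 78244801 to 78262580, plus strand) encodes the subunit that binds phosphatidylinositol 3-phosphate on phagosomes. It had 296, 237 and 290 CPM after TMM scaling in the foamy libraries, and 268, 291 and 222 CPM in the non-foamy libraries. The groups overlapped throughout (log2 fold change 0.08, SE 0.18, 95% interval -0.33 to 0.48, edgeR adjusted p = 0.89). Rac2 (ENSMUSG00000033220, chromosome 15, 78559169 to 78572783, minus strand), the GTPase of blood cells that switches the assembled enzyme on, lies 296588 bases from Ncf4. It had 608, 529 and 652 CPM after TMM scaling in the foamy libraries, and 458, 609 and 625 CPM in the non-foamy libraries. Apart from non-foamy replicate 1, which was lowest, the libraries of both groups were mixed (log2 fold change 0.08, SE 0.18, 95% interval -0.32 to 0.48, edgeR adjusted p = 0.88). With total counts as the only scaling the signs of Ncf4 (-0.21) and Rac2 (-0.19) flipped, still above the median of all genes under that scaling.

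Among the partner genes, Rac1, the more widely expressed GTPase, averaged 164 ± 28.9 CPM in the foamy and 157 ± 38.0 CPM in the non-foamy libraries (SD, n = 3 each; log2 fold change 0.06, edgeR adjusted p = 0.94). Its sign flipped under total counts alone, at -0.19. Cybc1, a chaperone needed for Cybb protein, averaged 61.1 ± 21.1 and 82.6 ± 21.6 CPM in the same order (log2 fold change -0.43, edgeR adjusted p = 0.51). For Cybb, Ncf4, Rac2 and Rac1 the 95% intervals stayed within -0.43 and 0.55, so larger differences than these lie outside them, and smaller ones do not.

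**Figure D2:**
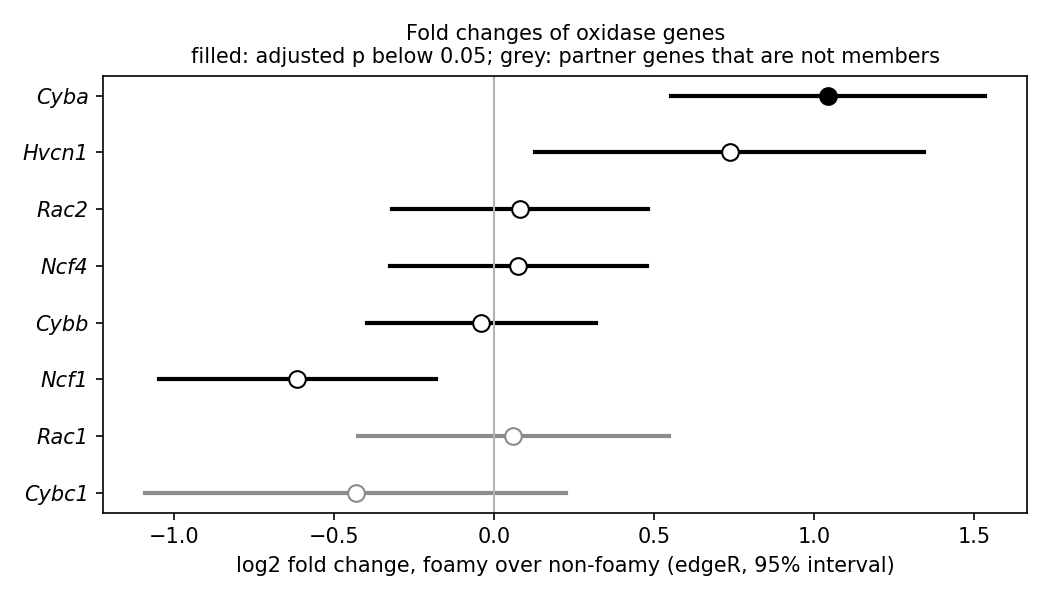
Log2 fold change, foamy over non-foamy, from edgeR for the 6 tested genes (black) and 2 partner genes (grey); lines are 95% intervals, and a filled point marks an adjusted p below 0.05. Cyba at 1.04 is the only filled point, and the intervals of Hvcn1 and Ncf1 leave out 0 although neither was called.

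Hvcn1 (ENSMUSG00000064267, chromosome 5, 122206804 to 122242297, plus strand), the proton channel, had 48.5, 44.2 and 56.7 TMM-normalized CPM in the foamy libraries, against 39.0, 29.5 and 21.2 CPM in the non-foamy libraries. The lowest foamy library stood above the highest non-foamy one, and the non-foamy libraries were spread widely. The means were 49.8 ± 6.35 CPM in the foamy and 29.9 ± 8.93 CPM in the non-foamy libraries (SD, n = 3 each), a difference that was not called (log2 fold change 0.74, SE 0.28, 95% interval 0.13 to 1.34, edgeR adjusted p = 0.17). On the deposited CPM the groups overlapped, at 42.1, 42.7 and 50.9 CPM in the foamy and 46.1, 31.7 and 21.9 CPM in the non-foamy libraries. B cells also express Hvcn1. Among their markers, Cd79a and Pax5 were at or below 0.32 CPM in all 6 libraries, Cd79b ran from 10.6 to 17.6 CPM in the foamy and 12.2 to 18.2 CPM in the non-foamy libraries, and Ms4a1 reached 8.96 CPM in non-foamy replicate 1. Cd22 was higher in the foamy libraries, at 40.5 to 58.0 CPM against 5.46 to 20.9 CPM in the non-foamy libraries (log2 fold change 2.06, edgeR adjusted p = 0.015), and its part in the Hvcn1 values was not tested. The B cell list, 10 genes, summed to 136 to 148 CPM in the foamy and 689 to 753 CPM in the non-foamy libraries, of which Ighm gave 71.8 to 96.6 CPM in the foamy and 656 to 731 CPM in the non-foamy libraries. Of the 3563 exonic bases of Hvcn1, 549 overlap Tctn1 on the other strand, which had 1 to 74 counts in the foamy and 3 to 11 counts in the non-foamy libraries.

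Nos2 (ENSMUSG00000020826, chromosome 11, 78920787 to 78960254, plus strand) was close to the limit of detection and did not pass the filter on low counts. It had 0, 0 and 1 counts in the foamy libraries, and 6, 3 and 11 counts in the non-foamy libraries. Every non-foamy library had more reads than any foamy one, but the whole signal is 21 reads in 6 libraries. The pooled level was 0.0157 CPM in the foamy libraries, where 3 counts over the group would be 0.0472 CPM, against 0.35 CPM in the non-foamy libraries. The ratio, non-foamy over foamy, was 22.2 with an exact 95% counting interval of 3.56 to 922, which covers counting error only. In the fit without a filter on low counts Nos2 was not called (log2 fold change -3.64, edgeR adjusted p = 0.35), and the median log2 fold change of the 29120 genes in that fit was -0.66.

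Levels of different genes were compared per kilobase of gene length, as TMM-normalized CPM per kilobase. Cyba stood highest, at 3661 ± 913 in the foamy and 1776 ± 350.3 in the non-foamy libraries (SD, n = 3 each). Rac2, at 196 ± 20.5 in the foamy and 186 ± 30.4 in the non-foamy libraries, and Cybb, at 183 ± 21.1 and 188 ± 4.45, followed it and did not differ from each other beyond their spread. Ncf4 came next at 136 ± 16.1 in the foamy and 129 ± 17.5 in the non-foamy libraries, below every Cybb value of the same group. Ncf1, at 16.6 ± 0.84 in the foamy and 25.4 ± 2.61 in the non-foamy libraries, and Hvcn1, at 14.0 ± 1.78 and 8.39 ± 2.51, overlapped in the foamy and stood apart in the non-foamy libraries. Among all tested genes, the percentile rank on this scale was 99.7 or above in every library for Cyba, 96.5 to 97.7 for Cybb, 80.4 to 87.5 for Ncf1 and 64.2 to 80.1 for Hvcn1.

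These lengths count every exon listed for a gene in the deposited data, so rarely used exons lower its value. With the longest protein-coding transcript of the GENCODE M21 basic set as length, a choice made after seeing the data, Cybb stood above Rac2, at 223 against 196 in the foamy and 229.6 against 186 in the non-foamy libraries. Ncf1 then stood at 21.1 per kilobase in the foamy and 32.3 in the non-foamy libraries. For Rac1 the deposited length, 2652 bases, was shorter than this transcript, 4159 bases. Its level was therefore lower with the transcript length, at 39.4 against 61.8 in the foamy and 37.8 against 59.3 in the non-foamy libraries. Under both lengths Cyba was highest, and Ncf1 and Hvcn1 were lowest, of the 7 genes drawn in the plot of levels per kilobase.

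**Figure D3:**
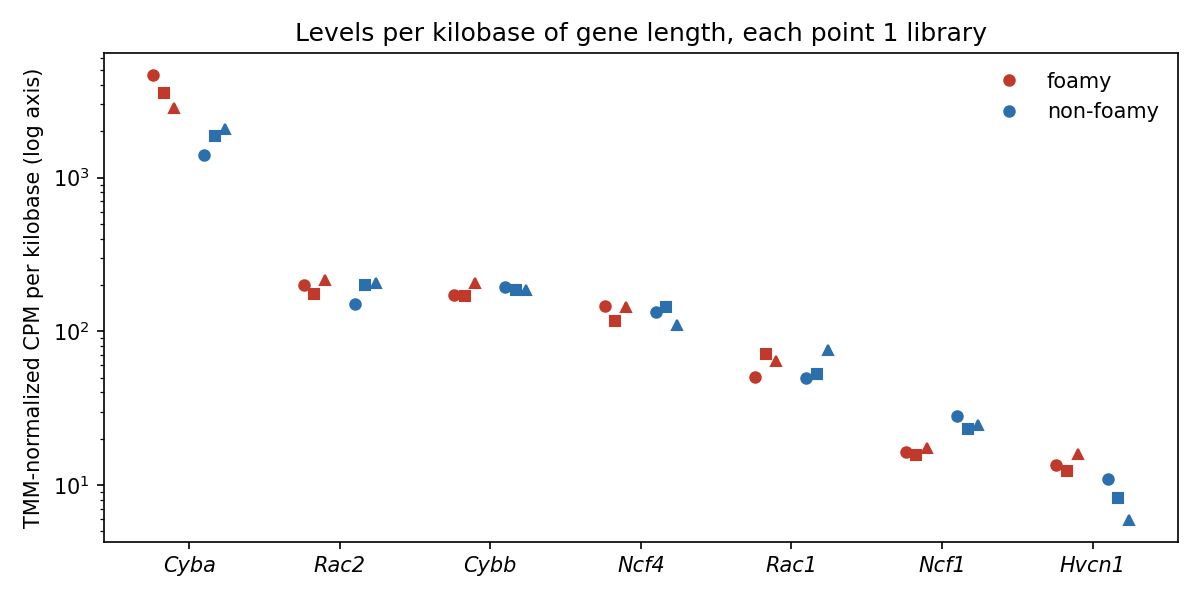
TMM-normalized CPM per kilobase, by deposited gene length, on a log axis, with each point 1 library (foamy red, non-foamy blue) for the 6 tested genes with Rac1. Cyba lies between 2813 and 4628 in the foamy and between 1393 and 2081 in the non-foamy libraries, while Ncf1 and Hvcn1 lie at or below 28.3; Nos2, with counts of 0, is not drawn.

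The ratio of 2 transcripts within a library does not depend on how libraries are scaled. Per kilobase, Cyba was 26.9, 20.9 and 13.6 times Cybb in the foamy libraries and 7.22, 10.0 and 11.2 times Cybb in the non-foamy libraries. The ratio between the partners of the membrane core was higher in each of the foamy libraries, with a difference of means of 1.08 on the log2 scale. Hvcn1 was 0.079, 0.073 and 0.077 times Cybb in the foamy libraries, and 0.057, 0.045 and 0.032 times Cybb in the non-foamy libraries, a difference of 0.82 on the log2 scale. Ncf1 was 0.096, 0.093 and 0.084 times Cybb in the foamy and 0.147, 0.126 and 0.132 times Cybb in the non-foamy libraries, a difference of -0.57. In all 3 ratios the groups did not overlap, and the exact two-sided permutation test gave p = 0.10, the smallest that 3 against 3 libraries allow (adjusted p = 0.20 over 6 ratios). These are the same 3 genes whose TMM-normalized CPM did not overlap, as in 25.7% of all genes tested. The share of all genes whose ratio to Cybb did not overlap was not computed.

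The ratios of Ncf4 and Rac2 to Cybb overlapped between the groups. Their differences, foamy minus non-foamy, were 0.12 and 0.13 on the log2 scale (exact permutation p = 0.40 and 0.70, and adjusted p = 0.48 and 0.70). The difference for Rac2 rested on non-foamy replicate 1, without which it was -0.03. None of these ratios could pass the threshold in a design of this size.

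**Figure D4:**
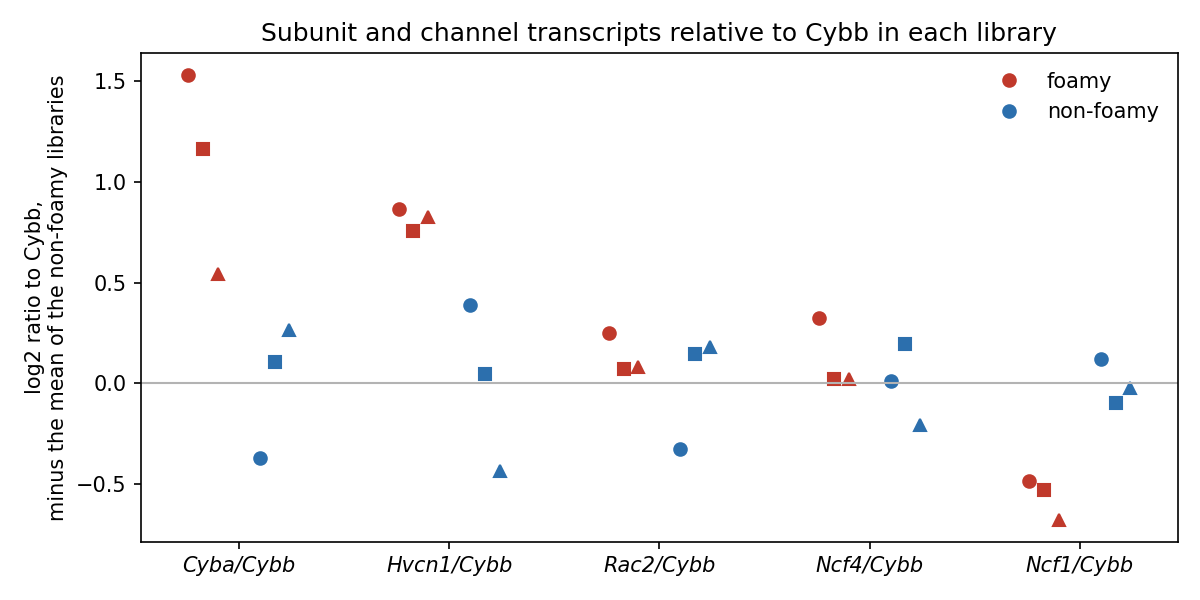
Log2 ratio of each transcript to Cybb per kilobase, with the mean of the non-foamy libraries set to 0, for 3 foamy (red) and 3 non-foamy (blue) libraries. Cyba and Hvcn1 lie higher and Ncf1 lower in all foamy libraries, with mean differences of 1.08, 0.82 and -0.57, while the other two ratios overlap.

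The genes whose profile over the 6 libraries was most like that of each member were found by the root mean square distance of centred log2 values, among 6079 genes with a mean of at least 10 CPM. Nearest to Cyba were Ftl1, which encodes ferritin light chain, at a distance of 0.11, and Lgals3, which encodes galectin-3, at 0.13. Ftl1 averaged 4531 ± 1051 CPM in the foamy and 2513 ± 588 CPM in the non-foamy libraries, and Lgals3 6075 ± 1975 and 3238 ± 868 CPM in the same order (SD, n = 3 each); neither was called (edgeR adjusted p = 0.053 and 0.076). Nearest to Hvcn1 were Eif3a, a subunit of translation initiation factor 3 (0.055), and the receptor gene Cd300lb (0.083), and nearest to Ncf1 were Copg1, a coat protein of Golgi vesicles (0.066), and the splicing factor gene Srsf7 (0.069). The flat profiles of Cybb, Ncf4 and Rac2 were nearest to those of Jak1 (0.049) and Lin7c (0.065), of Actl6a (0.053) and Ccdc174 (0.056), and of Atp6ap2 (0.062) and Cs (0.064).

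The surrounding pathway was described with 119 further genes in 8 lists, of which 94 were tested, 5 were higher and 4 lower in the foamy libraries. The share called was 9.57%, against 5.41% of all 11303 genes tested, and no set test was run. Scaled by total counts alone, 2 pathway genes were higher and 8 lower, against 165 higher and 614 lower over all genes tested. Among 16 genes of oxidase partners and assembly, all tested, 0 were higher and 1 was lower: Pak1, a kinase that Rac activates, averaged 31.5 ± 6.42 CPM in the foamy and 79.5 ± 12.2 CPM in the non-foamy libraries (log2 fold change -1.33, edgeR adjusted p = 0.0095, and 0.056 without foamy replicate 2). The median of this list was -0.17. Among 19 tested kinases and lipases that activate the oxidase, 0 were higher and 1 was lower, with a median of -0.24. That gene, Pla2g4a, encodes the cytosolic phospholipase A2 that releases arachidonic acid. It averaged 26.2 ± 2.11 CPM in the foamy and 88.6 ± 12.2 CPM in the non-foamy libraries (SD, n = 3 each; log2 fold change -1.76, SE 0.22, edgeR adjusted p = 0.0010).

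Genes that supply NADPH, the substrate of the oxidase, had 3 of 11 tested members higher and 0 lower, with a median of 0.72. The share called was 27.27%, against 5.41% of all genes tested. Idh1, the cytosolic isocitrate dehydrogenase, averaged 345 ± 39.4 CPM in the foamy and 137 ± 6.85 CPM in the non-foamy libraries, a log2 fold change of 1.33 (SE 0.17, edgeR adjusted p = 0.0012). Taldo1 and Pgd, enzymes of the pentose phosphate pathway, were called at log2 fold changes of 0.84 and 0.76 (edgeR adjusted p = 0.014 and 0.039). Of the genes that handle superoxide and peroxide, 2 of 11 tested (18.18%) were higher and 0 lower, with a median of 0.60. These were the peroxiredoxin genes Prdx2 (log2 fold change 0.69) and Prdx1 (0.61), with edgeR adjusted p of 0.048 and 0.049. The mitochondrial superoxide dismutase gene Sod2 averaged 63.7 ± 7.76 CPM in the foamy and 65.9 ± 18.5 CPM in the non-foamy libraries (edgeR adjusted p = 0.96). The calls of Prdx1 and Pgd were lost without any single library, foamy or non-foamy, and that of Prdx2 without any single library other than non-foamy replicate 3. With RLE factors Prdx1 and Prdx2 had edgeR adjusted p of 0.052 and 0.051, and scaled by total counts only these 3 stood at 0.35, 0.43 and 0.50 and were not called. The call of Taldo1 depended on foamy replicate 1, on foamy replicate 3 and on non-foamy replicate 2, and Idh1 was called in every alternative run.

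Of 9 other NOX and DUOX genes and their partners, none passed the filter. Nox4, the form of smooth muscle and endothelial cells, had 0, 1 and 36 counts in the foamy and 2, 1 and 0 counts in the non-foamy libraries. Foamy replicate 3, which held 36 of these reads, also had the most Acta2, a smooth muscle actin gene, among foamy libraries, at 16.7 CPM against 1.69 and 2.64 CPM in the other foamy libraries and 0.771 to 15.7 CPM in the non-foamy libraries, and its part in the result was not tested. The 8 smooth muscle markers summed to 2.76 to 28.1 CPM in the foamy and 7.47 to 34.4 CPM in the non-foamy libraries. In foamy replicate 3, Tagln (6.73 CPM), Mylk (2.71 CPM), Lmod1 (0.4845 CPM) and Actg2 (0.0969 CPM) were also the highest of the foamy libraries. Myh11 (0.0484 CPM), Cnn1 (0.4845 CPM) and Smtn (0.872 CPM) in that library were not. Of 7 tested genes for proton and charge movement, none was higher and none lower (median -0.06).

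The nitric oxide and arginine list had 15 tested members, of which none was called in either direction by edgeR, with a median of -0.04. Arg1, arginase 1, which competes with nitric oxide synthase for arginine, had 15, 92 and 34 counts in the foamy and 54, 731 and 323 counts in the non-foamy libraries. Its groups overlapped, its non-foamy values spread from 2.93 to 40.2 CPM, and it was not called (log2 fold change -2.87, SE 0.91, edgeR adjusted p = 0.10). It was called by DESeq2 (adjusted p = 0.0032) and by edgeR with no filter (adjusted p = 2.77e-05) and without non-foamy replicate 1 (-3.37, adjusted p = 0.041), and not by limma-voom (adjusted p = 0.23). The log2 fold change was -1.61 without non-foamy replicate 2 (edgeR adjusted p = 0.41) and -3.86 without foamy replicate 2 (edgeR adjusted p = 0.11). Arg1 reads exceeded Nos2 reads in each of the 6 libraries, and no ratio of Nos2 to Arg1 was computed because 2 foamy libraries had no Nos2 read. Slc7a2, the arginine transporter of activated macrophages, averaged 5.22 ± 2.29 CPM in the foamy and 7.83 ± 1.401 CPM in the non-foamy libraries (edgeR adjusted p = 0.63). Gch1, which makes the cofactor tetrahydrobiopterin, averaged 4.48 ± 1.25 and 10.3 ± 3.15 CPM in the same order (edgeR adjusted p = 0.20). Nos1, the neuronal synthase, had 3 counts over the foamy and 39 over the non-foamy libraries, of which non-foamy replicate 1 held 25. Nos3, the endothelial synthase, had 15 counts over the foamy libraries, of which foamy replicate 1 held 13, and 14 over the non-foamy libraries.

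Transcription factors known to act on the oxidase or Nos2 genes had 0 of 15 tested members higher and 2 lower, with a median of -0.62. The share called was 13.33%, against 5.41% of all genes tested. Cebpb averaged 23.8 ± 9.20 CPM in the foamy and 54.1 ± 7.68 CPM in the non-foamy libraries (log2 fold change -1.19, edgeR adjusted p = 0.046), and Ets1 13.2 ± 4.20 and 44.2 ± 24.0 CPM (-1.74, edgeR adjusted p = 0.030). The call of Cebpb was lost without any single library other than foamy replicate 2, and that of Ets1 without any single library other than non-foamy replicate 2 or 3. Of the monocyte and stress markers whose sums are given above, 7 of 10 and 13 of 18 tested genes were lower in the foamy libraries and none was higher, and their part in these results was not tested.

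**Figure D5:**
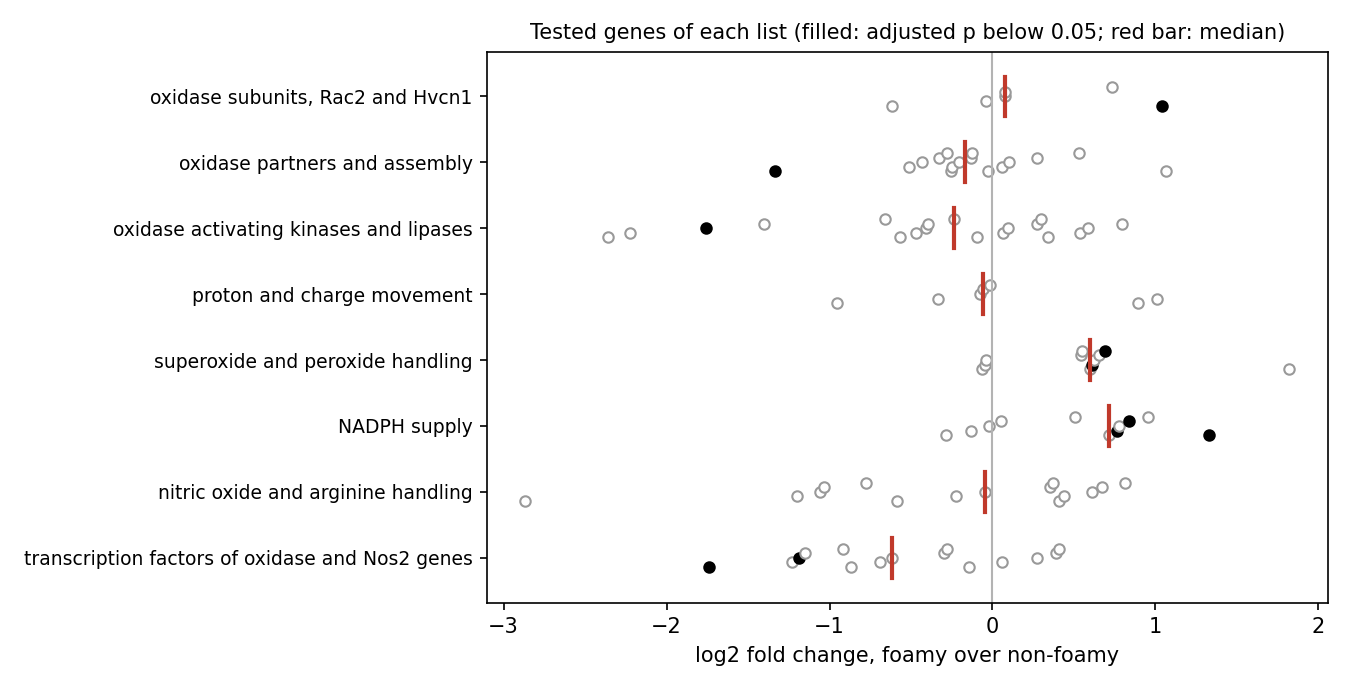
Log2 fold change, foamy over non-foamy, of every tested gene in 7 of the pathway lists and of the 6 tested members in the top row; filled points passed an adjusted p of 0.05 and the red bar is the median. The NADPH supply and superoxide lists have medians of 0.72 and 0.60, the transcription factor list of -0.62, and the other medians lie between -0.24 and 0.08.

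Neutrophils carry the same oxidase, and were looked for with a marker list. Its 16 genes summed to 44.6 to 65.5 CPM in the foamy and 17.1 to 54.0 CPM in the non-foamy libraries. Among them Ly6g, Elane and Ngp were at or below 0.192 CPM in all 6 libraries, and Camp was at 0. Mpo, the peroxidase of neutrophil granules, had 5 counts over the foamy and 10 over the non-foamy libraries. Of 5 tested neutrophil genes, Mmp8 was higher in the foamy libraries, at 28.9 to 40.1 CPM against 4.75 to 8.89 CPM in the non-foamy libraries, and S100a9 lower, at 0 to 0.0484 CPM against 1.34 to 18.3 CPM. Csf3r ran from 12.8 to 21.7 CPM in the foamy and 7.59 to 9.63 CPM in the non-foamy libraries. S100a8 reached 16.2 CPM in non-foamy replicate 2, and Cd177 and Retnlg reached 5.37 and 4.61 CPM in non-foamy replicate 1. Cxcr2 and Ltf reached 1.16 and 2.62 CPM in foamy replicate 3, and Padi4 reached 3.38 CPM in non-foamy replicate 2. The part of these cells in the oxidase values was not tested. For the remaining lists, 10 genes of T and NK cells summed to 11.2 to 21.8 CPM in the foamy and 1.09 to 4.03 CPM in the non-foamy libraries, 9 of endothelial cells to 9.63 to 13.7 and 15.7 to 18.3 CPM, and 8 of dendritic cells to 7.13 to 20.3 and 47.4 to 283 CPM. Of the tested genes of these 3 lists, Cd4 was higher and none lower. Cd4 alone gave 9.93 to 19.2 CPM of the T and NK cell sums in the foamy and 0.487 to 3.74 CPM in the non-foamy libraries. In all 6 libraries Cd3e was at or below 0.0593 CPM, Cd8a at or below 0.108 CPM and Trbc2 at 0. Lck reached 2.52 CPM in foamy replicate 3, and Cd3d 1.14 CPM in non-foamy replicate 3. Of the dendritic cell sums, Cd209a alone gave 0.165 to 13.98 CPM in the foamy and 33.2 to 268.3 CPM in the non-foamy libraries. It was not called (log2 fold change -4.95, edgeR adjusted p = 0.28). Batf3 gave 4.89 to 7.46 CPM in the foamy and 2.56 to 12.9 CPM in the non-foamy libraries. Ccr7 and Flt3 reached 13.5 and 6.01 CPM in non-foamy replicate 1, and Clec9a had reads only in foamy replicates 2 and 3. Of 3 tested B cell genes Cd22 was higher and Ighm lower, and of 4 tested smooth muscle genes none was called. The 10 macrophage markers, of which 3 were higher and 3 lower, summed to 51152 to 55185 CPM in the foamy and 28326 to 38986 CPM in the non-foamy libraries. Of these sums, Lyz2 gave 30660 to 32364 CPM in the foamy and 12708 to 17769 CPM in the non-foamy libraries. The higher genes were Cd68 (log2 fold change 0.97), Mertk (1.37) and Lyz2 (1.26). The lower ones were Adgre1 (-0.83), Csf1r (-1.28) and Mrc1 (-1.68).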

How the data were processed

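RNA of sorted macrophages was made into cDNA with the SMARTer Ultra Low kit and read as single reads of 50 bases, per the labels' protocols, which name no molecular identifiers. STAR 2.0.4b, Subread and featureCounts 1.4.5 with GRCm38 are listed in the submitters' processing notes; the sources used here give neither strandedness nor the handling of multi-mapping reads. The deposited counts are whole reads per gene, the deposited CPM are those counts scaled to a common library total, and the deposited RPKM are that CPM per kilobase; both were recomputed to within 1e-06. Symbols were found for 97.26% of identifiers. Counts were tested with edgeR 4.0.16 in R 4.3.3 (filterByExpr, TMM, robust quasi-likelihood F-test, group as the only term), with Benjamini-Hochberg adjustment over 11303 genes and a threshold of 0.05; SE is the log2 fold change over the square root of F. TMM factors were 0.868 to 0.966 in foamy and 1.03 to 1.19 in non-foamy libraries. Ratios between genes were compared with an exact permutation test over libraries (scipy 1.17.1), adjusted over the 6 computed, of which 1 is not reported here. The edgeR fit was also run on simulated counts, with a biological coefficient of variation of 0.505 for all genes. Unlike these data, those counts had no group difference in scaling, and the outcome is not reported here. Replicates of a group differed by more than sampling noise, with chi-square per degree of freedom of 50.7 or more.

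The members, lists and tests were chosen with earlier results of these data known. Genes named are the 7 members, 9 fixed partner genes, up to 3 called genes per list and direction by p, and the 2 nearest profiles of each tested member (pseudocount 0.5) and up to 2 abundant markers per list; other genes were chosen after their values were seen. Alternatives were RLE and upper-quartile factors, total counts only, DESeq2 1.42.0, limma-voom 3.58.1, testing without a filter, a stricter one (3 libraries with 10 counts, mean CPM of 5), a replicate block, a 1.5-fold threshold test, and leaving out each library. Transcript length was added after seeing the data.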

Additional observations from a re-analysis of the deposited data

How the results depend on the processing

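The number of the 7 genes called was 1 in 9 of 15 alternatives, 2 with total counts as the only scaling (Cyba higher, Ncf1 lower) and 0 with a test against a 1.5-fold change. It was 0 to 1 when 1 library was left out, the 0 coming when that was foamy 1, foamy 2 or non-foamy 2. All genes called numbered 611 as reported, 1173 with DESeq2, 276 against a 1.5-fold change and 271 to 579 with 1 library left out. Pathway genes called numbered 9, 16 with DESeq2, 2 against a 1.5-fold change and 3 to 8 with 1 library left out. For the pairing, same-numbered libraries did not deviate together (correlations of -0.103, -0.029 and -0.039); with the replicate number as a block, 0 members, 4 pathway genes and 391 genes were called, and the log2 fold change of Cyba was 1.03 (edgeR adjusted p = 0.069). That fit also did not call Taldo1, Pgd, Prdx1, Prdx2, Cebpb and Ets1 (edgeR adjusted p = 0.058 to 0.164) and called Arg1 (-2.62, edgeR adjusted p = 0.021). For Cyba it was 1.04 against a 1.5-fold change and 0.85 to 1.21 with 1 library left out. Ncf1 was called with total counts only (-0.89). Log2 fold changes near 0 changed sign: Cybb was 0.066 without a filter and -0.131 to 0.023 with 1 library left out. Total counts only gave -0.21 for Ncf4, -0.19 for Rac2 and -0.19 for Rac1, under which the median of all genes was -0.31. With 1 library left out, Ncf4 ran from -0.017 to 0.181, Rac2 from -0.053 to 0.171, Rac1 from -0.056 to 0.288 and Sod2 from -0.255 to 0.156, and Sod2 was 0.034 without a filter. The log2 ratio of Rac2 to Cybb, foamy minus non-foamy, ran from -0.029 to 0.223 with 1 library left out. With transcript lengths, the mean log2 ratio to Cybb changed sign to -0.25 for Rac2. The causes were not tested. Nos2 could be fitted only without a filter, and its depth limits it to counts.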
